A study of Mus musculus with 2 samples.

Results

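The cells described here are Loricrin-high granular keratinocytes (KCs) of newborn mouse epidermis. They were chosen by a measured value: a cell was a member when Lor, the gene of loricrin, took at least 0.5% of its transcripts. Transcripts were counted as unique molecular identifiers (UMIs), the tags that let copies made by PCR be counted as 1 molecule. Barcodes were first kept if they had 900 to 7700 detected genes and under 10% of their UMIs from mitochondrial genes. The rule found 73 members among 19488 kept cells (0.375%). KO mouse 1 held 41 members among 7607 cells (0.539%, exact 95% binomial interval 0.387 to 0.730%), and KO mouse 2 held 32 among 11881 (0.269%, 0.184 to 0.380%). The share was lower in KO mouse 2, and the intervals, which cover counting error only, did not overlap. Over the mice the mean share was 0.404% ± 0.191 (SD, n = 2).

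Both libraries came from dorsal epidermis of male P0 mice of strain C57BL/6J in which Chrm3 was knocked out (KO). Chrm3 encodes the M3 muscarinic receptor for acetylcholine. Each library held the cells of 1 mouse. The Chrm3 KO is shared by every cell described, there is 1 group, and wild-type libraries were not analysed here, so no effect of genotype was tested. Skin was left overnight in a separation buffer, and dead cells were removed from the epidermal suspension before the libraries were made with droplet-based chemistry from 10x Genomics. The labels and the paper's methods give different versions of that chemistry. KO mouse 1 had 10816 deposited barcodes with 109756784 UMIs, and KO mouse 2 had 15867 with 166441732. The libraries had 127 barcode sequences in common, and none of the members carried a shared one.

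In the epidermis, KCs divide in the basal layer and then rise through the spinous and granular layers until they die and become the flat corneocytes of the surface. Granular KCs store profilaggrin in keratohyalin granules and make loricrin and other proteins that transglutaminases cross-link under the plasma membrane into the cornified envelope. They also release lipids and proteases between the cells, and at the end they degrade their nucleus and organelles.

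The promoters of Lor, of the profilaggrin gene Flg and of Lce1m, a late cornified envelope gene, are shown because Lor chose the members, Flg marked them and Lce1m differed among them. Each line gives the 200 bases before the start of the gene in RefSeq (GRCm38.p6), 5′ to 3′ on the strand of the gene. Capitals mark matches to TGANTCA, a motif of AP-1 factors, and to TATAAA, the TATA box. The windows are chr3:92083143-92083342 on the minus strand for Lor, chr3:93273346-93273545 on the plus strand for Flg and chr3:93019062-93019261 on the minus strand for Lce1m.
Lor: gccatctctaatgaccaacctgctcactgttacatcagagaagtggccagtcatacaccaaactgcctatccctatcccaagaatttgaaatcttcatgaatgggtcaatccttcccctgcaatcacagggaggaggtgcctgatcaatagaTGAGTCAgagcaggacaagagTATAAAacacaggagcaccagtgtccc
Flg: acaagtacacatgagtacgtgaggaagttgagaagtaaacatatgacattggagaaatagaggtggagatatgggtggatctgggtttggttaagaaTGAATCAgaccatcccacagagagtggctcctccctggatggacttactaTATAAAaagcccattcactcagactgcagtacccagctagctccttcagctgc
Lce1m: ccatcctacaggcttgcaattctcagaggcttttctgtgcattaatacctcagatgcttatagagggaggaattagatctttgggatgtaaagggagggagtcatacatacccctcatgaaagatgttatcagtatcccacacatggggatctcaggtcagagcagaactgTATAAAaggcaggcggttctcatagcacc
The AP-1 match began 48 bases before the start of Lor and 103 bases before that of Flg, and none was found in the window of Lce1m. The TATA box began 27, 53 and 29 bases before the start of Lor, Flg and Lce1m. Both strands were searched, and the AP-1 letters were found in 5.48% of all 32544 promoters of this length and TATAAA in 9.89%. A further motif, AACNGGTT of the GRHL factors, was found in 1.45% of all promoters and in none of these 3.

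Of the 47 genes listed as cornified envelope precursors, 46 were in the files and 45 of these lay in 1 stretch of chromosome 3 between bases 92080271 and 93471980 (GRCm38, GENCODE M21), with Cnfn on chromosome 7. A promoter was found for 43 of the 47 genes. AP-1 letters were in 15 of these (34.9%) and a TATA box in 17 (39.5%). The families of the list were not alike. AP-1 letters were in 9 of 14 promoters of Sprr genes (64.3%), which encode small proline-rich proteins, beside 5.48% of all promoters. They were in 0 of 13 promoters of Lce1 genes, which is near the share over all promoters and no trait of Lce1 genes. A match describes letters in a window, not a bound site.

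Just inside the rule, Lor took 0.516%, 0.570% and 0.585% of UMIs in the members of KO mouse 1 with the lowest values, and just outside 0.484%, 0.477% and 0.467%. In KO mouse 2 the values were 0.521%, 0.796% and 0.798% inside and 0.499%, 0.494% and 0.491% outside. The rule cut through a continuous range, since 20 and 23 further cells had Lor between 0.25% and 0.5%. Over the 41 members of KO mouse 1 Lor ran from 0.516% to 16.02% with a median of 1.38%, and over the 32 of KO mouse 2 from 0.521% to 12.7% with a median of 1.73%. Members held 71.1% and 59.6% of all Lor UMIs in kept cells of the 2 mice.

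Lor UMIs were also counted in cells that should lack the gene. Melanocyte-type cells were chosen by Pmel of at least 0.1% of UMIs, with the Lor-high members left out. Their Lor share was thus capped by choice, and the background given here leaves out any Pmel-high cell that met the Lor rule. They numbered 357 and 555 cells, of which 24 and 48 were called doublets, and 33.6% and 47.6% had at least 1 Lor UMI. When each cell was thinned to 2000 UMIs, those shares were 9.32% and 11.8%. The level of Lor in these cells was 41.8 and 71.5 CPM, the UMIs of a gene scaled to a common library total, against 28720 and 29780 CPM in the summed members. The parts of free RNA and doublets in this background were not tested.

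The label was checked with Flg and Tgm3, which were not part of the rule. Flg reached 37389 and 32905 CPM in the members of the 2 mice. Pmel-high cells had 121 and 276 CPM. A Flg UMI was found in all 73 members, but also in 68.6% and 84.7% of Pmel-high cells, at median depths of 9144 and 10268 UMIs. At 2000 UMIs per cell the shares were 100% and 96.4% of members and 22.9% and 35.7% of Pmel-high cells. Members with fewer UMIs than that, 10 and 4 in the 2 mice, were left out of the thinned shares. In members the share of UMIs taken by Flg ran from 0.0429% to 11.5% in KO mouse 1 and from 0.0474% to 9.20% in KO mouse 2. Over all members Tgm3, a transglutaminase of the epidermis, went against the label. A Tgm3 UMI was found in 7 of 41 members (17.1%) and in 6 of 32 (18.8%), whereas it was found in 36.01% and 35.96% of Krt10-high, Lor-low cells. These compared cells were deeper, with medians of 19372.5 and 18144.5 UMIs against 6144 and 13075 in members. When cells were thinned to 2000 UMIs, Tgm3 was found in 0 of 31 and 0 of 28 members (exact 95% binomial upper limits 11.2% and 12.3%) against 8.54% and 8.88% of Krt10-high, Lor-low cells. In summed cells Tgm3 was at 15.2 and 37.7 CPM in members, 53.6 and 58.1 CPM in Krt10-high, Lor-low cells, and 1.06 and 0.908 CPM in Pmel-high cells. Of the 8 markers listed for granular KCs, Tgm3 was the 1 that was not highest in the members among these classes.

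Members differed widely among themselves in depth and in which differentiation genes they carried. Krt10, the keratin of differentiating layers, had a gap between 0.228% and 0.572% of UMIs with no member inside, and among members above that gap the depth had a gap between 6144 and 8762 UMIs. Limits of 0.5% Krt10 and 7000 UMIs were set in these gaps after the values had been seen, and the resulting subgroups are described without a test. The deep Krt10-high subgroup had 11 and 13 cells in the 2 mice, the shallow Krt10-high subgroup 21 and 6, and the Krt10-low subgroup 9 and 13. Deep cells were 32.9% of the members but held 66.4% of their UMIs. Shallow cells were 37.0% of the members with 7.28% of the UMIs, and Krt10-low cells were 30.1% with 26.4%. Deep cells therefore gave most of the UMIs of a sum over members, but not for every gene: Krt10-low cells held 2520 of the 2696 and 4919 of the 5071 Lce1m UMIs of all members.

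**Figure D1:**
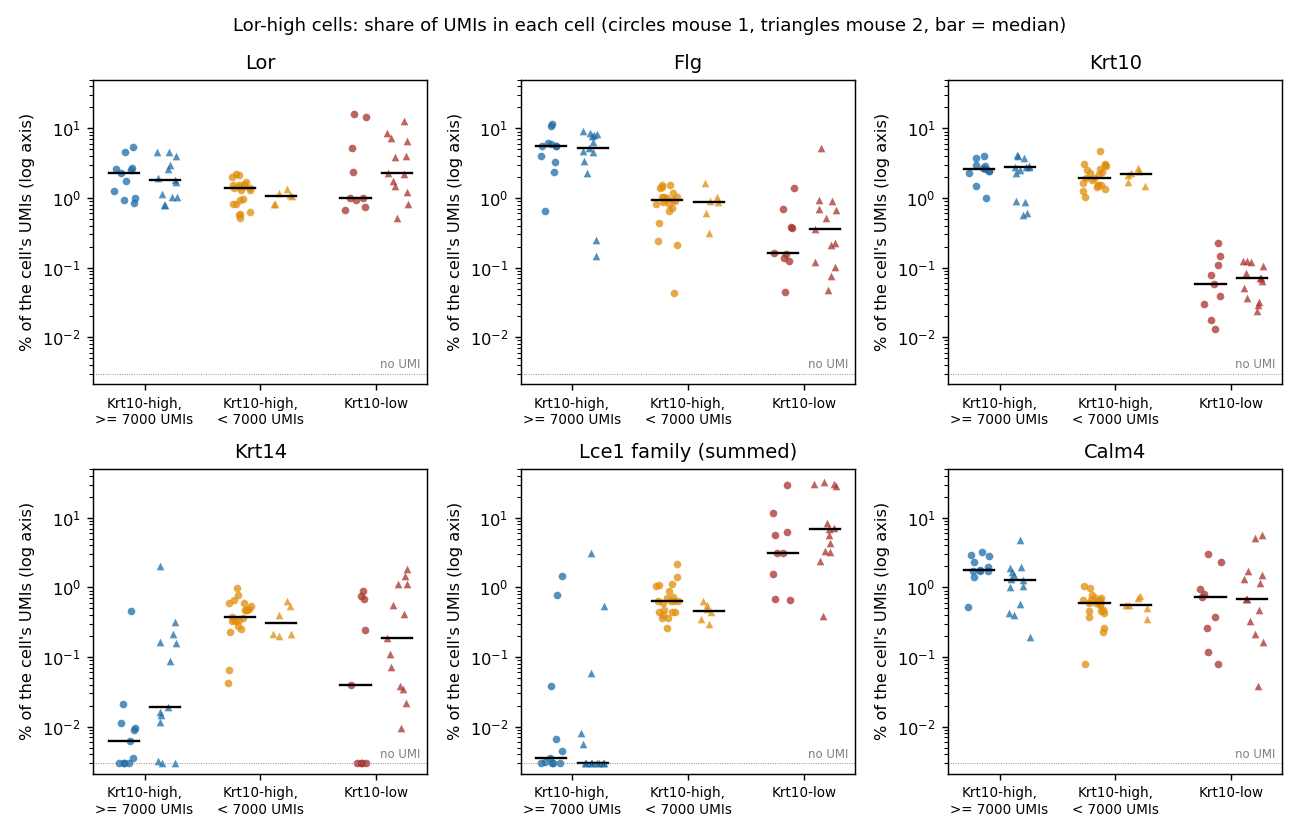
Share of the cell's UMIs (percent, log axis) taken by Lor, Flg, Krt10, Krt14, the summed Lce1 family and Calm4 in each of 73 members, by subgroup, with circles for KO mouse 1, triangles for KO mouse 2 and a bar at the median. Cells without a UMI are drawn at the dotted line. Flg was highest in the deep Krt10-high cells and the Lce1 family in the Krt10-low cells, while the ranges of Lor overlapped.

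Deep Krt10-high members were the Flg-rich cells. The median share of Flg was 5.58% and 5.30% in the 2 mice in this subgroup, 0.922% and 0.882% in shallow cells and 0.162% and 0.359% in Krt10-low cells. Flg exceeded 1% of UMIs in 21 of 24 deep cells, 11 of 27 shallow cells and 2 of 22 Krt10-low cells. Both mice had the same order. Krt1, the partner keratin of Krt10, was at 26661 and 29008 CPM in the summed deep cells and at 825 and 621 CPM in the Krt10-low cells. Ivl, the gene of the envelope protein involucrin, was at 958 and 693 CPM in deep cells and at 28.1 and 0 CPM in Krt10-low cells. Spink5, which encodes the protease inhibitor LEKTI, was at 4850 and 4116 CPM in deep cells against 169 and 142 CPM in Krt10-low cells. Klf4, a transcription factor needed for the barrier, was at 2013 and 1830 CPM against 366 and 207 CPM. A Tgm3 UMI was found in 10 of 24 deep cells, 2 of 27 shallow cells and 1 of 22 Krt10-low cells. The low share of Tgm3 over all members thus did not hold for the deep cells (5 of 11 and 5 of 13 in the 2 mice). Their median depths were 28108 and 17655 UMIs.

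Krt10-low members carried the late cornified envelope genes. The Lce1 family together took a median of 3.14% and 6.91% of UMIs in these cells, and a single cell reached 32.7%. In the deep Krt10-high cells the medians were 0.00359% and 0%. An Lce1 UMI was found in 22 of 22 Krt10-low cells, 27 of 27 shallow cells and 13 of 24 deep cells, and the family exceeded 1% of UMIs in 19, 5 and 2 of them. Lce1m was at 23634 and 31826 CPM in the summed Krt10-low cells and at 198 and 326 CPM in the deep cells. Crct1, a cysteine-rich gene next to Lce1m, was at 13758 and 22380 CPM against 2100 and 1716 CPM. The same cells were high in Hmox1, the gene of the haem-degrading enzyme heme oxygenase, at 413 and 679 CPM against 30.1 and 11.1 CPM in deep cells. Trex2, a DNA exonuclease of KCs, was at 216 and 466 CPM against 77.04 and 83.5 CPM. Few cells carried much of this signal. The 2 Krt10-low members of each mouse with under 1500 genes, a limit set after the values had been seen, held 1468 of the 2696 Lce1m UMIs of all members in KO mouse 1 and 2028 of 5071 in KO mouse 2. In the other Krt10-low cells Lce1m was at 11615 and 22404 CPM, still above the deep cells.

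Across the 73 members the share of Lor followed that of Calm4, a calmodulin-like gene of the epidermis, with a Spearman correlation of 0.71 (0.73 and 0.69 within each mouse). With Flg the correlation of Lor was 0.28 (0.48 in KO mouse 1 and 0.087 in KO mouse 2), and with the Lce1 family 0.14 (0.017 and 0.29), so these values differed between the mice. The Lce1 family and Flg ran against each other, with −0.70 across all members, −0.58 in KO mouse 1 and −0.72 in KO mouse 2. The Lce1 family ran with Crct1 (0.70) and against Krt10 (−0.67). These correlations describe cells of 2 libraries, are shares of the same total, and depend on depth, which differed between the subgroups.

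**Figure D2:**
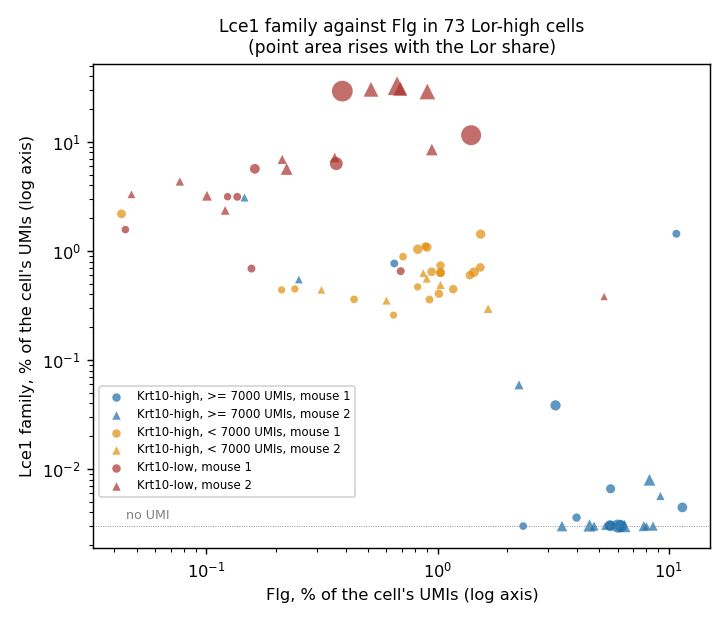
Share of UMIs of the Lce1 family against that of Flg (percent, both axes log) in the 73 members, coloured by subgroup, with circles for KO mouse 1 and triangles for KO mouse 2. The area of a point rises with the Lor share, and the dotted position at the lower edge holds the 11 cells without an Lce1 UMI, all of them deep Krt10-high cells.

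Shallow Krt10-high members had median depths of 2017 and 1921.5 UMIs. Krt14, the keratin of the basal layer, took a median of 0.379% and 0.308% of their UMIs, against 0.00612% and 0.0190% in deep cells. It was at or above 0.25% in 21 of 27 shallow cells, 3 of 24 deep cells and 9 of 22 Krt10-low cells. The highest Krt14 share of a single cell was 0.973% in the shallow, 2.01% in the deep and 1.81% in the Krt10-low subgroup. The median share of mitochondrial UMIs was 1.35% and 1.73% in shallow cells, 3.83% and 4.91% in deep cells and 4.08% and 3.75% in Krt10-low cells. Dct, a melanocyte gene, and Krt25, a keratin of the inner root sheath, were highest in the summed shallow cells of both mice, though from few UMIs. Dct was at 537 and 184 CPM (30 and 3 UMIs) and Krt25 at 197 and 552 CPM (11 and 9 UMIs). In KO mouse 1, 1 shallow cell held 18 of the 46 melanocyte UMIs of all members. The follicle gene Lhx2 had another order, with 107 and 0 CPM in shallow cells against 206 and 149 CPM in Krt10-low cells. The part of free RNA in these values was not tested.

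Markers of other cell types were counted over all members. T-cell genes (Cd3g, Cd3d and Cd3e) and Merkel-cell genes (Krt8, Isl1, Krt20 and Atoh1) had 0 UMIs in both mice. Dermal collagens and Lum together had 1 UMI in each mouse, red-cell genes 2 and 1, and Langerhans-cell genes 7 and 9. Melanocyte genes had 46 and 53 UMIs, of which 39.1% and 84.9% lay in 1 cell of each mouse. Genes of the inner root sheath and hair shaft had 85 and 104 UMIs in 24 and 19 members, with 37.6% and 49.0% of them in 1 cell of each mouse. Hair follicle genes had 47 and 62 UMIs, with 31.9% and 32.3% in 1 cell of each mouse. Sebaceous genes had 29 and 16 UMIs, with 13.8% and 18.8% in 1 cell of each mouse. The upper follicle genes Krt79 and Krt17 had 857 and 230 UMIs, with 53.7% of those of KO mouse 1 in 1 cell. Doublet scores gave no member above the limit of 0.2, and the highest scores were 0.0745 and 0.0856.

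The members were compared with 2 other classes of kept cells. Krt10-high, Lor-low cells (Krt10 at least 1% of UMIs, Lor under 0.5%) numbered 286 and 356 in the 2 mice and stand for earlier differentiating KCs. Krt14-high, Krt10-low cells (Krt14 at least 0.5%, Krt10 under 0.2%, Lor under 0.05%) numbered 2662 and 4675 and stand for basal KCs. UMIs were summed per mouse and class, since cells are not replicates. The members gave sums of 461070 and 529922 UMIs, the Krt10-high, Lor-low cells 6495695 and 7767611, and the Krt14-high, Krt10-low cells 31043948 and 55464023. Fold changes are log2 values, and p-values come from edgeR's quasi-likelihood F-test, adjusted by Benjamini-Hochberg over 11788 genes. The value after ± is a standard error derived from that test, the size of the fold change over the square root of F. Lor, Krt10 and Krt14 chose the classes and were left out of the test. All other genes were read in cells picked by their Lor level, so the tests tell which transcripts went with high Lor and are no independent check that these cells are a type. The compared classes were picked by Krt10, Krt14 and low Lor, so genes that go with Krt10 or Krt14 differ partly by that choice. Both comparisons share the sums of the members, and the comparison with Krt10-high, Lor-low cells is called the first and that with Krt14-high, Krt10-low cells the second.

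The 3 genes of the rules were as follows. Lor was at 28720 and 29780 CPM in members, 194 and 195 CPM in Krt10-high, Lor-low cells, and 43.0 and 61.5 CPM in Krt14-high, Krt10-low cells. Krt10 was at 20183 and 18710 CPM in members and at 28074 and 25691 CPM in Krt10-high, Lor-low cells. Krt14 was at 1392 and 2646 CPM in members, 2083 and 2910 CPM in Krt10-high, Lor-low cells and 12792 and 13012 CPM in the basal class.

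**Figure D3:**
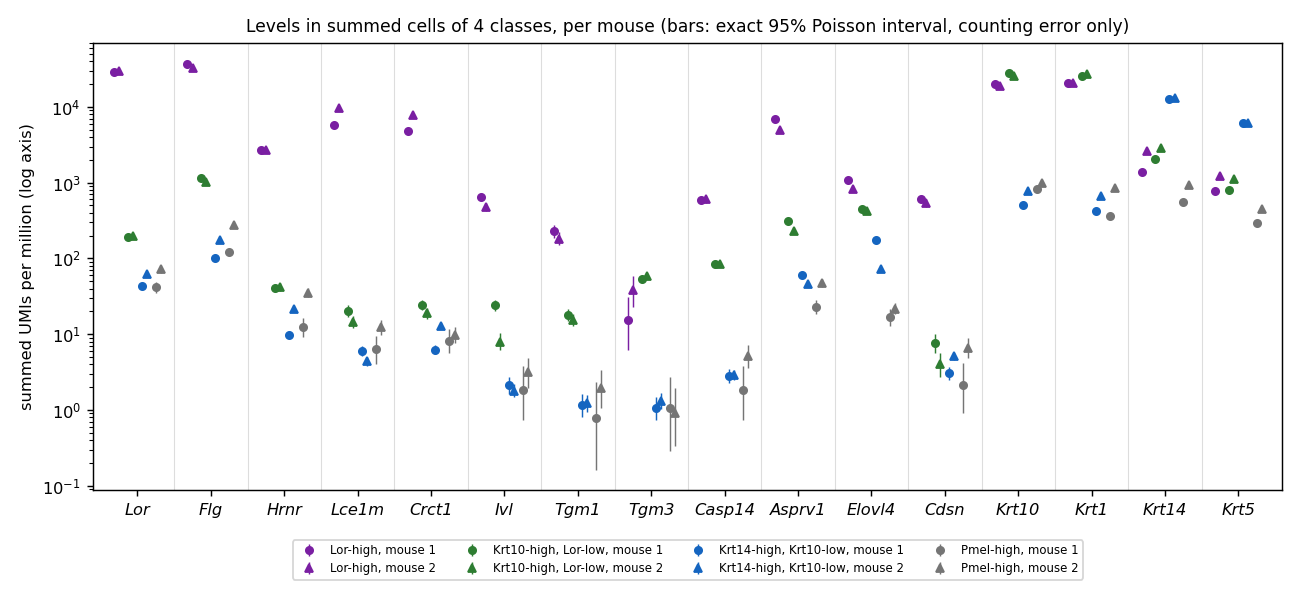
Level in CPM (log axis) of 16 genes in the members and in Krt10-high, Lor-low, Krt14-high, Krt10-low and Pmel-high cells, with circles for KO mouse 1, triangles for KO mouse 2 and bars for exact 95% Poisson intervals. Envelope and protease genes were highest in the members in both mice, while Tgm3 was highest in the Krt10-high, Lor-low cells.

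Against Krt10-high, Lor-low cells, 1368 of 11788 genes (11.6%) were higher in the members and 1290 (10.9%) were lower. The median log2 fold change over all genes was −0.14. Against Krt14-high, Krt10-low cells, 1945 genes (16.5%) were higher and 1898 (16.1%) lower, with a median of −0.29. Scaling by the size factors of DESeq2 moved these medians to −0.04 and −0.18. The split depended on the scaling and the tool: 51.5% of the calls of edgeR were higher in the first comparison and 50.6% in the second, against 60.2% and 59.1% in edgeR with the size factors of DESeq2 and 66.0% and 64.2% with DESeq2.

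Precursors of the cornified envelope were higher as a group. Of 47 listed genes, 35 passed the filter on low counts, 33 of these (94.3%, beside 11.6% of all genes) rose against Krt10-high, Lor-low cells, none fell, and the median log2 fold change was 8.49 beside −0.14 over all genes. Against Krt14-high, Krt10-low cells 34 of 35 (97.1%, beside 16.5% of all genes) rose, with a median of 10.87. Genes with few UMIs outside the members could pass the filter only by being high in them, so these counts are a description. Leaving out the Krt10-low members, 27 of 29 tested precursors (93.1%, beside 11.99% of all genes in that fit) rose against Krt10-high, Lor-low cells, with a lower median of 4.42.

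Of the listed and tested genes of the S100-fused family, which includes the profilaggrin of the keratohyalin granules, Flg, Flg2, Hrnr and Rptn rose against Krt10-high, Lor-low cells and Tchh was not called. Flg was at 37389 and 32905 CPM in members, 1135 and 1024 CPM in Krt10-high, Lor-low cells, and 103 and 176 CPM in Krt14-high, Krt10-low cells. The values of the classes did not overlap, and the log2 fold changes were 5.12 ± 0.27 (adjusted p = 6.2e-06) and 8.32 ± 0.31 (adjusted p = 2.7e-07). Flg2 was at 486 and 485 CPM in members and 4.62 and 3.22 CPM in Krt10-high, Lor-low cells (7.07 ± 0.20, adjusted p = 4.5e-07). Hrnr, the gene of hornerin at chr3:93319749-93333570, was at 2663 and 2727 CPM against 41.3 and 42.1 CPM (6.12 ± 0.36, adjusted p = 1.0e-05). Rptn, the gene of repetin, was at 95.4 and 34.0 CPM against 1.85 and 6.82 CPM (3.92 ± 0.62, adjusted p = 0.0024, and 0.062 without the members of KO mouse 1). Tchh, the trichohyalin gene best known from hair follicles, was not called, at 30.4 and 24.5 CPM in members and 43.1 and 60.4 CPM in Krt10-high, Lor-low cells.

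Among the late envelope genes, Lce1m (chr3:93017810-93019060) was at 5847 and 9569 CPM in members, 20.3 and 14.7 CPM in Krt10-high, Lor-low cells, and 5.96 and 4.38 CPM in Krt14-high, Krt10-low cells. Pmel-high cells had 6.34 and 12.3 CPM. The log2 fold change against Krt10-high, Lor-low cells was 8.90 ± 0.37 (adjusted p = 3.0e-06). It was 4.12 with the deep Krt10-high members alone (adjusted p = 1.3e-05), so it was smaller without the Krt10-low and shallow cells. Few deep cells carried this value, since an Lce1m UMI was found in 8 of 24 and the median share was 0. The highest share in a deep cell (0.787%) lay in a cell of KO mouse 2 with Krt10 at 0.618%, near the 0.5% limit, and Krt14 at 2.01%. Crct1 (chr3:93014205-93015687) was at 4782 and 7745 CPM against 24.3 and 18.8 CPM, a log2 fold change of 8.30 ± 0.47 (adjusted p = 8.4e-06), and of 6.67 with the deep members alone. The Lce1 family took 1.59% and 4.29% of the UMIs of all members and 0.00976% and 0.00587% of those of the Krt10-high, Lor-low cells. Reads of these near-identical paralogs can be shared between them, so the summed family is the firmer value.

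Involucrin and the small proline-rich proteins were less even. Ivl was at 644 and 481 CPM in members and 24.2 and 7.98 CPM in Krt10-high, Lor-low cells (5.25 ± 0.40, adjusted p = 4.5e-05). Cnfn, the gene of cornifelin, was at 861 and 983 CPM against 20.2 and 22.1 CPM (5.55 ± 0.40). Sprr1b rose by 1.94 ± 0.39 (adjusted p = 0.0084), and was not called without the members of KO mouse 1 (adjusted p = 0.089). Members of the 2 mice differed greatly in other Sprr genes, with Sprr1a at 213 CPM in KO mouse 1 and 20.8 CPM in KO mouse 2. The opposite held for Sprr2d, at 124 and 1228 CPM, and for Sprr2b, at 4.34 and 851 CPM. Sprr2e had 3 and 63 UMIs in members and 0 in Krt10-high, Lor-low cells, and no fold is given for it.

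The rule for named genes listed mostly these families. Of the 12 genes with the largest positive log2 fold change against Krt10-high, Lor-low cells, 10 were Sprr2 or Lce genes. Several of them had almost no UMIs in Krt10-high, Lor-low cells, with 0 in both mice for Sprr2e, 0 and 3 for Sprr2b, 0 and 1 for Lce3d and 1 and 4 for Lce1k, so they passed the filter through the members and their order is not a measured rank. The other two of the 12 were Wfdc21, a whey acidic protein gene at 753 and 957 CPM against 1.39 and 2.19 CPM (8.98 ± 0.39), and Krtap3-2, a keratin-associated protein gene at 71.6 and 49.1 CPM against 0.154 and 0 CPM, the latter from 1 and 0 UMIs. For the second comparison all 12 were Sprr2 or Lce genes, with the same limit.

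Of 13 genes for cross-linking and scaffold proteins of the envelope, 12 were tested. Against Krt10-high, Lor-low cells 8 rose and 3 fell (66.7% and 25%, beside 11.6% and 10.9% of all genes), and against Krt14-high, Krt10-low cells 12 rose (100%, beside 16.5%), with medians of 1.21 and 3.00. Tgm1, the main transglutaminase of the envelope, was at 228 and 183 CPM in members, 18.01 and 15.3 CPM in Krt10-high, Lor-low cells and 1.16 and 1.23 CPM in Krt14-high, Krt10-low cells (3.72 ± 0.16, adjusted p = 3.4e-06 for the first comparison). The scaffold genes periplakin (Ppl, 1.51 ± 0.14), envoplakin (Evpl, 0.87 ± 0.18) and sciellin (Scel, 1.07 ± 0.24) rose by less, and Evpl (adjusted p = 0.072) and Scel (0.11) were not called without the members of KO mouse 2. Tgm3 was the gene not called against Krt10-high, Lor-low cells (−0.93 ± 0.32, adjusted p = 0.068), and it was called lower with the mouse as a block (−0.94, adjusted p = 0.032). In the second comparison it was higher (4.83 ± 0.48, adjusted p = 8.9e-05). The 3 genes that fell were the cystatin-type inhibitors Stfa1 (−1.94 ± 0.22), Stfa3 (−0.97 ± 0.20) and BC100530 (−0.76 ± 0.22), and all 3 rose against Krt14-high, Krt10-low cells, though Stfa1 was not called there without the members of KO mouse 2 (adjusted p = 0.20). With the deep Krt10-high members alone Stfa1 was the 1 that fell.

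**Figure D4:**
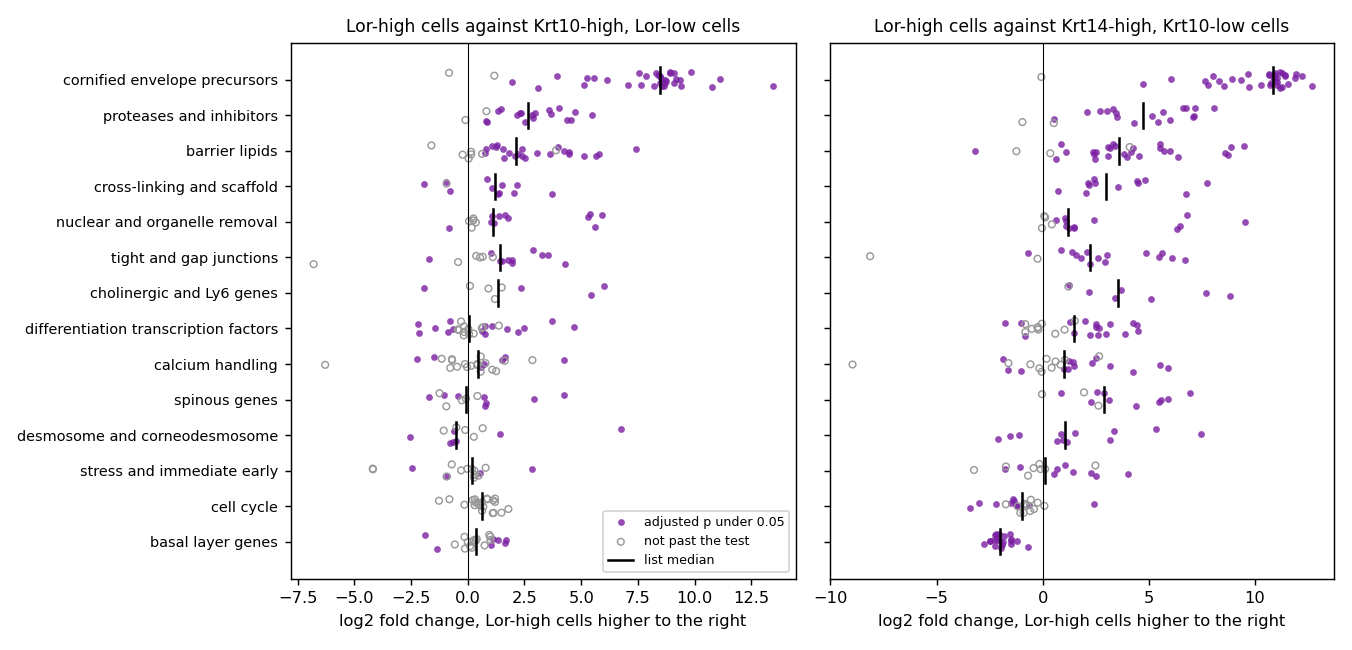
Log2 fold changes of the tested genes of each list (Lor-high cells higher to the right), against Krt10-high, Lor-low cells on the left and Krt14-high, Krt10-low cells on the right. Filled points passed an adjusted p of 0.05, open points did not, and a bar marks the median of the list. The envelope list lies farthest to the right in both panels, with medians of 8.49 and 10.87, and the open points at the far left are genes without a UMI in members.

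Proteases and their inhibitors process profilaggrin and release corneocytes at the surface. Of 25 listed genes 20 were tested. Against Krt10-high, Lor-low cells 18 rose (90%, beside 11.6% of all genes) and none fell (beside 10.9%), with a median of 2.67, and against Krt14-high, Krt10-low cells 18 rose (90%, beside 16.5%), with a median of 4.73. Casp14, a caspase of cornifying KCs, was at 599 and 606 CPM in members, 84.7 and 83.4 CPM in Krt10-high, Lor-low cells and 2.80 and 2.88 CPM in Krt14-high, Krt10-low cells (2.94 ± 0.11, adjusted p = 2.5e-06). Asprv1, the gene of a profilaggrin-processing aspartic protease, was at 6958 and 4942 CPM against 309 and 228 CPM (4.56 ± 0.23, adjusted p = 5.1e-06). Kallikreins that cleave corneodesmosomes also rose, Klk5 by 4.73 ± 0.34 and Klk7 by 3.58 ± 0.38, as did their inhibitor Spink5 by 4.39 ± 0.21. The genes not called were Klk10, at 4.34 and 9.44 CPM in members against 8.47 and 7.85 CPM, and Tmprss13, at 47.7 and 41.5 CPM against 31.9 and 22.3 CPM. With the mouse as a block Tmprss13 was called higher (0.82, adjusted p = 0.048).

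Genes of barrier lipids, which make and carry the ceramides and fatty acids of the lamellae between corneocytes, rose in 23 of 30 cases against Krt10-high, Lor-low cells (76.7%, beside 11.6% of all genes), with none lower (beside 10.9%) and a median of 2.15. For the second comparison 26 rose and 1 fell (86.7% and 3.33%, beside 16.5% and 16.1%), with a median of 3.61. The lipoxygenase gene Alox12b was at 178 and 162 CPM in members against 10.2 and 6.57 CPM in Krt10-high, Lor-low cells (4.46 ± 0.24, adjusted p = 6.6e-06). Sdr9c7, a dehydrogenase of the same ceramide pathway, was at 139 and 132 CPM against 4.003 and 4.25 CPM (5.13 ± 0.27). Abca12, the lipid transporter of lamellar granules, rose by 2.54 ± 0.27, the ceramide synthase Cers3 by 2.22 ± 0.20 and the fatty acid elongase Elovl4 by 1.22 ± 0.33. Elovl4 was not called without the members of KO mouse 1 (adjusted p = 0.18) or KO mouse 2 (0.088). The gene that fell against Krt14-high, Krt10-low cells was Elovl3, at 2.17 and 1.89 CPM in members against 30.0 and 16.8 CPM, and it too was not called without the members of KO mouse 1 (adjusted p = 0.15) or KO mouse 2 (0.17).

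Cell adhesion genes were called in both directions against Krt10-high, Lor-low cells. Among 12 tested genes of desmosomes and corneodesmosomes, 2 rose and 5 fell against Krt10-high, Lor-low cells (16.7% and 41.7%, beside 11.6% and 10.9% of all genes). Cdsn, the gene of corneodesmosin, which reinforces desmosomes of the outer layers, was at 616 and 542 CPM in members and 7.70 and 3.99 CPM in Krt10-high, Lor-low cells (6.75 ± 0.32, adjusted p = 4.3e-06), and Dsc1, a desmocollin of upper layers, rose by 1.44 ± 0.15. Dsc3, a desmocollin of lower layers, was at 126 and 123 CPM against 800 and 779 CPM (−2.57 ± 0.14, adjusted p = 8.3e-06). Dsp, Jup, Pkp1 and Perp fell by 0.53 to 0.79 on the log2 scale, but with the deep Krt10-high members alone none of the 4 was called (adjusted p from 0.12 to 0.71). In the second comparison 9 genes of this list rose and 3 fell (75% and 25%, beside 16.5% and 16.1%). Of 17 tested genes of tight and gap junctions 10 rose and 1 fell against Krt10-high, Lor-low cells (58.8% and 5.88%), and 14 rose and 1 fell against Krt14-high, Krt10-low cells (82.4% and 5.88%). The tight junction gene Cldn4 was at 156 and 145 CPM in members against 14.6 and 13.003 CPM in Krt10-high, Lor-low cells (3.55 ± 0.31). The gap junction gene that fell in both was Gja1, connexin 43, at 65.1 and 86.8 CPM against 266 and 279 CPM (−1.73 ± 0.17). Without the members of KO mouse 1, 6 of these genes rose in the first comparison, where 7.31% of all genes did, and Gja1 was not called in the second (adjusted p = 0.11).

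Transcription factors of differentiation moved both ways. Of 27 tested, 9 rose and 6 fell against Krt10-high, Lor-low cells (33.3% and 22.2%, beside 11.6% and 10.9% of all genes), with a median of 0.06. In the second comparison 14 rose and 3 fell (51.9% and 11.1%, beside 16.5% and 16.1%), with a median of 1.48. Without the members of KO mouse 1 the counts of the first comparison were 5 and 3, and without those of KO mouse 2 they were 6 and 3, but the shares over all genes fell as well, to 7.31% higher and 5.08% lower, and to 7.43% and 6.48%. Prdm1, the gene of Blimp1, was at 62.9 and 22.6 CPM in members against 2.001 and 1.54 CPM in Krt10-high, Lor-low cells (4.66 ± 0.59, adjusted p = 0.00079), and the nuclear receptor gene Rora at 757 and 666 CPM against 152 and 123 CPM (2.47 ± 0.21). Klf4 rose by 0.61 ± 0.12 (adjusted p = 0.0085, and 0.086 without the Krt10-high, Lor-low cells of KO mouse 2) and by 2.51 ± 0.13 in the second comparison. Klf5 was at 84.6 and 37.7 CPM in members against 309 and 263 CPM (−2.16 ± 0.26). Grhl1 rose by 1.09 ± 0.28 (adjusted p = 0.024, and 0.17 and 0.12 without the members of KO mouse 1 or KO mouse 2), while Grhl3, at 6.51 and 9.44 CPM in members against 6.47 and 4.51 CPM, was not called.

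Genes of the spinous layer moved in both directions. Krt10 picked both compared classes, so the counts of this list are a description. Of 13 tested, 5 rose and 3 fell against Krt10-high, Lor-low cells (38.5% and 23.1%, beside 11.6% and 10.9% of all genes), and 10 rose and none fell against Krt14-high, Krt10-low cells (76.9% and 0%, beside 16.5% and 16.1%). Krt1 was at 20435 and 20546 CPM in members against 25761 and 26848 CPM in Krt10-high, Lor-low cells (−0.26 ± 0.20, adjusted p = 0.40). Sbsn, the gene of suprabasin, was at 7101 and 5361 CPM against 948 and 824 CPM (2.91 ± 0.18), and Calml3, a calmodulin-like gene, rose by 4.23 ± 0.30. The epithelial 14-3-3 gene Sfn fell by 1.73 ± 0.13 on the log2 scale and the galectin gene Lgals3 by 1.07 ± 0.14.

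Basal layer genes were lower in members than in Krt14-high, Krt10-low cells in 21 of 21 tested cases, beside 16.1% of all genes, with a median of −1.997. Those compared cells were picked by high Krt14, so genes that go with Krt14 are high there by choice, and the count is a description. Krt5, the partner keratin of Krt14, was at 779 and 1230.4 CPM in members, 803 and 1126 CPM in Krt10-high, Lor-low cells and 6076 and 6189 CPM in Krt14-high, Krt10-low cells (−2.24 ± 0.25, adjusted p = 0.00018 for the last). Against Krt10-high, Lor-low cells 5 of the 21 rose (Itgb4, Sparc, Fst, Lamb3 and Lama5) and 2 fell (Krt15 and Postn), or 23.8% and 9.52% beside 11.6% and 10.9% of all genes, but without the Krt10-low members none rose and 7 fell (beside 11.99% and 12.8% of all genes), and without the members of KO mouse 2 none rose and 2 fell (beside 7.43% and 6.48%). With the mouse as a block 8 rose and 3 fell (beside 12.7% and 12.3%). In the Krt10-low cells summed Krt14 was at 3198 and 5888 CPM beside 258 and 1214 CPM in the deep cells. The part of free RNA in this was not tested.

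Genes that remove the nucleus and organelles rose in 10 of 16 tested cases against Krt10-high, Lor-low cells (62.5%, beside 11.6% of all genes), with 1 lower (6.25%, beside 10.9%), and in 12 against Krt14-high, Krt10-low cells (75%, beside 16.5%). The DNase gene Dnase1l2 was at 182 and 125 CPM in members against 5.70 and 2.70 CPM in Krt10-high, Lor-low cells (5.31 ± 0.33, adjusted p = 1.5e-05). Trex2 was at 99.8 and 192 CPM against 2.77 and 2.45 CPM (5.94 ± 0.38), and Hmox1 at 119 and 208 CPM against 3.69 and 4.63 CPM (5.40 ± 0.32). The gene that fell was Endou, an endoribonuclease gene, at 349 and 262 CPM against 586 and 578 CPM (−0.84 ± 0.13), and it was not called with the deep Krt10-high members alone (adjusted p = 0.17). Rises of the autophagy gene Map1lc3a (1.76 ± 0.14) and the mitophagy receptor gene Bnip3l (1.07 ± 0.21) were smaller than those of Dnase1l2, Trex2 and Hmox1. With the deep Krt10-high members alone Hmox1, from 9 and 4 UMIs, rose by 2.44, Map1lc3a by 1.23 and Bnip3l by 0.62 on the log2 scale. Bnip3l was not called without the members of KO mouse 2 (adjusted p = 0.067).

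Cell cycle genes were not called against Krt10-high, Lor-low cells (0 of 22 by edgeR, with 6 higher at an unadjusted p under 0.05, 5 higher by DESeq2 and 4 higher with the mouse as a block, beside 11.6%, 15.4% and 12.7% of all genes called higher by edgeR, by DESeq2 and with the block). For the second comparison 9 fell and 1 rose (40.9% and 4.55%, beside 16.1% and 16.5% of all genes), with 14 lower with the mouse as a block, 17 lower without the Krt10-low members, and 1 and 2 lower without the members of KO mouse 1 or KO mouse 2. Over all genes the shares lower in these settings were 17.4%, 19.3%, 7.62% and 9.02%. The proliferation marker Mki67 was at 75.9 and 26.4 CPM in members, 20.6 and 37.5 CPM in Krt10-high, Lor-low cells and 106 and 120 CPM in Krt14-high, Krt10-low cells, and was called in neither comparison, but it was lower than in Krt14-high, Krt10-low cells without the Krt10-low members (−1.25, adjusted p = 0.036). The gene that rose was Cdkn1a, an inhibitor of cyclin-dependent kinases, at 401 and 428 CPM against 114 and 87.5 CPM (2.40 ± 0.15).

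The genes with the largest fall against Krt10-high, Lor-low cells came from many functions. Clca3a2, a calcium-activated chloride channel regulator, was at 39.0 and 15.1 CPM in members against 1043 and 810 CPM (−5.04 ± 0.36, adjusted p = 3.0e-05). Chchd10, a mitochondrial protein gene, was at 2.17 and 3.77 CPM in members, from only 1 and 2 UMIs, against 55.9 and 55.1 CPM (−4.09 ± 0.38). The glycerol channel gene Aqp3 was at 15.2 and 24.5 CPM against 290 and 216 CPM (−3.55 ± 0.34). Others were Mgst1, Cwh43, Ckmt1, Ctsc, Gadl1, Dsc3, Pak6, Lman1 and Krt16. Krt16, a keratin of stressed epidermis, was at 62.9 and 84.9 CPM against 405 and 484 CPM (−2.47 ± 0.19), while Hspb1, a small heat shock protein gene, was at 2481 and 2004 CPM against 346 and 334 CPM (2.82 ± 0.29). Of 17 tested stress and immediate early genes 2 rose and 2 fell in this comparison (11.8% each, beside 11.6% and 10.9% of all genes), and 7 rose and 2 fell in the other (41.2% and 11.8%, beside 16.5% and 16.1%). When blocked by mouse the counts were 4 and 2 (beside 12.7% and 12.3% of all genes), and 7 and 5 (beside 17.2% and 17.4%). In the second comparison the largest falls were those of Ube2c, Wnt16, Mgst1, Igfbp2, Ass1, Prkcdbp, Pltp, Pdlim1, Oat, Lama3, Cav1 and Lman1, from −3.42 to −2.42. Ube2c had 6 and 0 UMIs in members and Pltp 0 and 9, so their places in this order are not a measured rank. Ube2c was not called without the members of KO mouse 1 or KO mouse 2.

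Genes of cholinergic signalling were listed because Chrm3 was knocked out, but no effect of the knockout on them was tested. Chrm3 (chr13:9875486-10360847) had 0 UMIs in the members of both mice, which allows up to 6.51 and 5.66 CPM. All kept cells together had 13 and 19 Chrm3 UMIs (0.137 and 0.128 CPM), so the depth of the members could not show a level of that size. Of 25 listed cholinergic and Ly6-type genes 8 passed the filter, of which 3 rose and 1 fell against Krt10-high, Lor-low cells (37.5% and 12.5%, beside 11.6% and 10.9% of all genes) and 7 rose against Krt14-high, Krt10-low cells (87.5%, beside 16.5%). With the mouse as a block 5 of the 8 rose in the first comparison, beside 12.7% of all genes in that fit. Slurp1, a secreted ligand of nicotinic receptors, was at 269 and 100 CPM in members against 2.16 and 3.73 CPM in Krt10-high, Lor-low cells (6.01 ± 0.49, adjusted p = 6.5e-05). It was highest in the deep Krt10-high members, at 412 and 148 CPM, and had no UMI in the Krt10-low members of both mice. Lypd5 (5.41 ± 0.37) and Ly6g6c (2.33 ± 0.25) rose, and Ly6d fell by 1.94 ± 0.17 on the log2 scale.

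Among 25 tested genes of calcium handling 5 rose and 2 fell against Krt10-high, Lor-low cells (20% and 8%, beside 11.6% and 10.9% of all genes), and 11 rose and 3 fell against Krt14-high, Krt10-low cells (44% and 12%, beside 16.5% and 16.1%). Calm4 was at 16052 and 15363 CPM in members, 5879 and 4866 CPM in Krt10-high, Lor-low cells and 437 and 436 CPM in Krt14-high, Krt10-low cells (1.65 ± 0.14, adjusted p = 6.9e-05 for the first comparison). The S100 genes S100a11, at 308 and 460 CPM against 2006 and 1873 CPM (−2.22 ± 0.20), and S100a10 (−1.50 ± 0.18) fell in both comparisons.

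Of the lists of other cell types, each of at most 6 tested genes, none had more than 1 called against Krt10-high, Lor-low cells, where 11.6% of all genes were higher and 10.9% lower. Dct (2.12 ± 0.58, adjusted p = 0.030), Krt71 of the inner root sheath (3.14 ± 0.68, adjusted p = 0.012) and the follicle gene Lhx2 (1.47 ± 0.34, adjusted p = 0.015) were higher, and the sebaceous gene Mgst1 was lower. With the deep Krt10-high members alone, Dct, Krt71 and Lhx2 were not called, and without the members of KO mouse 2 the adjusted p was 0.18, 0.14 and 0.19. With the mouse as a block 3 of 6 tested inner root sheath and hair shaft genes were higher, beside 12.7% of all genes in that fit. For the second comparison 5 of 6 tested inner root sheath and hair shaft genes were higher (83.3%, beside 16.5% of all genes). With the deep members alone 1 was higher there, beside 17.9% of all genes in that fit. In the same comparison Dct (1.84 ± 0.55) and Lhx2 (1.04 ± 0.32) were higher, while the follicle gene Sox9 (−1.36 ± 0.29), the upper follicle gene Krt17 (−1.66 ± 0.37) and the sebaceous genes Scd1 (−2.41 ± 0.61) and Mgst1 (−2.87 ± 0.44) were lower. Without the members of KO mouse 1, Dct, Lhx2 and Scd1 were not called there (adjusted p = 0.15, 0.073 and 0.14), and without those of KO mouse 2 Dct, Lhx2, Sox9 and Scd1 were not (0.19, 0.33, 0.098 and 0.13). None of the 2 upper follicle, 6 Langerhans-cell, 1 T-cell and 1 dermal genes tested was called against Krt10-high, Lor-low cells by edgeR or DESeq2, and 0 had an unadjusted p under 0.05.

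Most Lor-high barcodes did not pass the filter on cells. Among all deposited barcodes 259 in KO mouse 1 and 224 in KO mouse 2 had Lor of at least 0.5%, and the filter removed 218 (84.2%, exact 95% binomial interval 79.1 to 88.4%) and 192 (85.7%, 80.4 to 90.0%) of them. Of the other barcodes it removed 28.3% and 24.3%. The removed barcodes were of 2 kinds. In 116 and 77 the number of genes alone was too low, with medians of 953 and 929 UMIs and of 0.733% and 0.784% mitochondrial UMIs, and in 79 and 108 the mitochondrial share alone was too high, with medians of 4985 and 5669.5 UMIs and of 30.4% and 27.0%. The remaining 23 and 7 failed on both.

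The kinds of removed barcodes also differed in their genes. Barcodes with few genes had the Lce1 family at 27.8% and 21.0% of their summed UMIs, above the 6.27% and 14.4% of the Krt10-low members. All removed barcodes with a high mitochondrial share (102 and 115, including those that failed on both) had Flg at 68153 and 87013 CPM, above the 55071 and 45152 CPM of the deep Krt10-high members, and the nuclear RNA Malat1 at 47170 and 45167 CPM against 8152 and 7544 CPM. The order of Lce1 and Flg was the same in both mice. Members held 25.7% and 31.4% of the Lor UMIs of all deposited barcodes, so the larger part of the Lor transcripts lay outside the cells described.

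**Figure D5:**
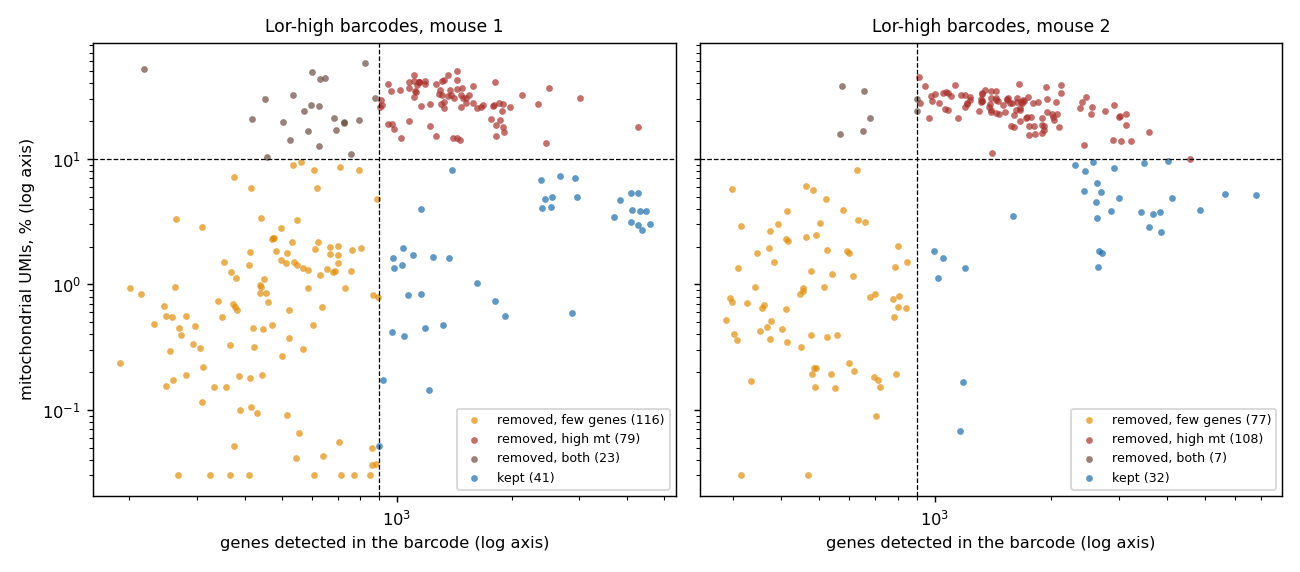
Detected genes and percent of mitochondrial UMIs (both axes log) of each Lor-high barcode, with KO mouse 1 on the left and KO mouse 2 on the right and colours for kept and removed barcodes. Dashed lines mark the limits of 900 genes and 10%, and 218 of 259 and 192 of 224 barcodes lie outside them.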

How the data were processed

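Per the submitters' processing notes, Cell Ranger 3.0.2 and mm10 were used. The authors deposited raw UMI counts for 27998 genes in 10816 and 15867 barcodes, with medians of 8660 and 9085 UMIs. The filter on cells used here had not been applied to them. Droplets outside these barcodes were not part of the counts. Members and gene lists were chosen with earlier results of these data known. Named genes are list members and, for each comparison, the 12 called genes with the largest change in each direction, of at least 50 CPM in the higher class, moved the same way in both mice.

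Counts were summed per mouse and class in Python 3.11.15. The 6 sums of 3 classes entered 1 fit in edgeR 4.0.16 (R 4.3.3, TMM, filterByExpr, quasi-likelihood F-test, 3 residual degrees of freedom, Benjamini-Hochberg, adjusted p under 0.05). The common biological coefficient of variation was 0.117. CPM are UMIs scaled to a common total per sum. DESeq2 1.42.0, other limits, thinned cells, a mouse block and left-out sums were alternatives. The settings that drop member subgroups were added after the data had been seen. Same-numbered sums come from 1 animal, so they are paired. Their deviations correlated with r of 0.074, 0.176 and 0.496 over 5120 genes.

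Scrublet (scanpy 1.11.5) scored doublets. Its automatic limit marked 0.0263% of cells in KO mouse 1, so a score of 0.2 was used, which marked 2.55% and 4.15%, and marked cells stayed in. A count of 0 was taken to allow up to 3 UMIs. Poisson and binomial intervals cover counting error only. Where a symbol had several identifiers, that with the most UMIs was used. Positions are from GENCODE M21 (GRCm38).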

Additional observations from a re-analysis of the deposited data

Results flagged for a closer look

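Lor-high barcodes that the filter on cells removed are data outside the comparisons, which is why they are given here. Of the barcodes with Lor of at least 0.5% of UMIs, 218 in KO mouse 1 and 192 in KO mouse 2 were removed. Their Lor share was at least 0.5% by construction, so that it lay above the 41.8 and 71.5 CPM of Pmel-high cells is fixed by the choice and is no finding. Those removed for few genes alone had a median Lor share of 4.54% and 3.36%, against 1.38% and 1.73% in members, and those removed for a high mitochondrial share alone had 0.770% and 0.978%. The part of depth, mitochondrial share and free RNA in these values was not tested.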

How the results depend on the processing

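The share of members over both mice (0.404%) became 0.845% with mitochondrial UMIs under 5% (1.33% in KO mouse 1 and 0.355% in KO mouse 2), 0.855% with a minimum of 500 genes (1.18% and 0.534%) and 0.632% with a Lor limit of 0.25% (0.802% and 0.463%). Against Krt10-high, Lor-low cells, the 2658 called genes became 1035 with mitochondrial UMIs under 5% and 627 with cells thinned to 2000 UMIs, and leaving out 1 sum of the compared classes gave 1524 to 1992. Against Krt14-high, Krt10-low cells, the 3843 became 1983 and 884, and 2429 to 3582. These settings leave fewer UMIs or samples. The other settings kept both counts within 1.5 times, among them the replicate block with the mouse as a term (2942 and 4081) and DESeq2 (2745 and 3619). Apart from the calls given with each comparison, the block changed no call of a named gene. Directions of named genes changed against Krt10-high, Lor-low cells only. With the deep Krt10-high members alone the values were −0.79 for Itgb4, 0.095 for Klk10, 0.28 for Krt1, −1.40 for Krt5, −0.38 for Lama5, −0.021 for Lamb3 and −0.27 for Mki67. Without the Krt10-low members they were −0.22 for Itgb4, 0.13 for Klk10, 0.18 for Krt1 and −0.95 for Krt5. With thinned cells they were −0.020 for Evpl, −0.10 for Klf4, 2.03 for Klk10 and 0.17 for Tchh. Klk10 also changed sign with a Lor limit of 0.25% (0.33) and with Krt10-high cells of Lor under 0.1% (0.027), and Krt1 with a Lor limit of 1% (0.0088). Leaving out 1 sum gave −0.87 to 0.37 for Klk10 and −0.27 to 0.51 for Krt5. The cause of these changes was not tested. With mitochondrial UMIs under 5%, 23 of 99 named genes lost their call against Krt10-high, Lor-low cells. With thinned cells 19 did, not counting the 4 that changed direction, of which Evpl and Klf4 had been called. Where the members of KO mouse 1 or KO mouse 2 were left out, the lone sum is assumed to vary like the other classes. At 461070 and 529922 UMIs in all members, genes below a few CPM could not be measured.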
